A study of Homo sapiens with 2 samples.

Results

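The annexin genes encode the vertebrate family of calcium-dependent phospholipid-binding proteins. Their transcripts were measured by RNA sequencing in A549, a cell line from a human lung adenocarcinoma. The 10 genes ANXA1 to ANXA8, ANXA10 and ANXA11 were taken by symbol from a table of 39720 gene symbols. Their symbols define them, but the family was chosen on the measured ratio of the libraries, which was already known, so every value below that sets the 2 libraries side by side is a description and carries no test. The shDEPDC1B library came from cells infected with a lentivirus whose hairpin targets DEPDC1B, a gene for a DEP domain protein. The shNC library came from cells infected with a lentivirus that carries a negative control hairpin. Both infections used 5 µg/mL polybrene, and cells were harvested on day 2. Each group has 1 library, so no difference has a replicate check. A difference between them compares 2 libraries and not 2 conditions, and fewer copies of an RNA per cell cannot be told apart from fewer cells that hold it. The sources used here do not say how many hairpins were used or whether the infected cells were selected.

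Each annexin carries a conserved core of annexin repeats. In most members the core binds calcium and, through it, acidic phospholipids such as phosphatidylserine on the inner face of membranes. The N-terminal tail differs between members and sets the partners, among them the small S100 calcium-binding proteins. Members are known for roles in membrane repair, vesicle traffic, control of phospholipase activity and plasminogen activation at the cell surface, and ANXA1, ANXA2, ANXA4 and ANXA5 are well known in epithelial cells.

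The libraries held 18862371 counts in shDEPDC1B and 18647290 in shNC. DEPDC1B had 39 counts in shDEPDC1B and 329 in shNC, a log2 ratio of -3.00 [-3.51, -2.52]. Brackets after a value hold the exact 95% interval, which covers counting error alone, and ratios are shDEPDC1B over shNC after scaling by trimmed means (TMM). Genes were assessed at 30 or more counts in the higher library and called higher or lower at 1.5-fold or more with an interval that excludes equality. The A549 epithelial markers KRT7, KRT8, KRT18 and AKR1B10 were abundant, and the 10 genes of that list summed to 34225 CPM (counts divided by the scaled library size in units of 1000000) in shDEPDC1B and 30695 CPM in shNC. AKR1C1, with 75552 counts in shDEPDC1B and 51781 in shNC, and EPCAM, with 65 and 37 in shDEPDC1B and shNC, were the 2 called higher. None of the 10 was called lower, and 19.2% of all assessed genes were called higher and 19.6% lower. The call of EPCAM ended after a loess on transcript length. AKR1C1 alone was called there, beside 13% of genes higher and 15% lower. Of 10 leukocyte, 8 fibroblast and 8 endothelial markers, 3, 2 and 0 were assessed. Their summed levels were 48.7, 12.7 and 0.932 CPM in shDEPDC1B, against 49.8, 11.6 and 1.04 CPM in shNC. The T and B cell markers CD3D, CD3E and MS4A1 were at 0 in both libraries, and CD68, CD14 and ITGAM made up most of the leukocyte sum. Of these 3, CD14 was called higher at 175 counts in shDEPDC1B and 107 in shNC and was not called after that loess. There CD68 (-0.78) was newly called lower, and ITGAM (0.66) and the fibroblast markers COL1A1 (0.59) and COL3A1 (0.755) newly higher.

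Annexin transcripts took up 1.01% [1.01, 1.02] of all counts in shDEPDC1B and 0.719% [0.715, 0.723] in shNC. ANXA5 was 3.24-fold higher in shDEPDC1B and ANXA2 1.68-fold higher, while the other 7 assessed members differed by less than 1.5-fold. No assessed member was called lower. ANXA10, the remaining member, had too few counts to be assessed. The 2 of 9 assessed members called higher stand beside 19.2% of all 13850 assessed genes, and the 0 called lower beside 19.6%, so the number of higher calls is near the background. The median log2 ratio of the 9 assessed members was 0.25, against 0.04 for all assessed genes and 0.01 for the 4605 genes with 1000 or more counts in the higher library. All 9 had a ratio above 1, with ANXA8 within counting error and below 1 after scaling by library totals or by DESeq2 size factors and after the fits on transcript length. At a 2-fold threshold ANXA5 was the only member called, beside 5.86% of all assessed genes higher and 8.97% lower.

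**Figure D1:**
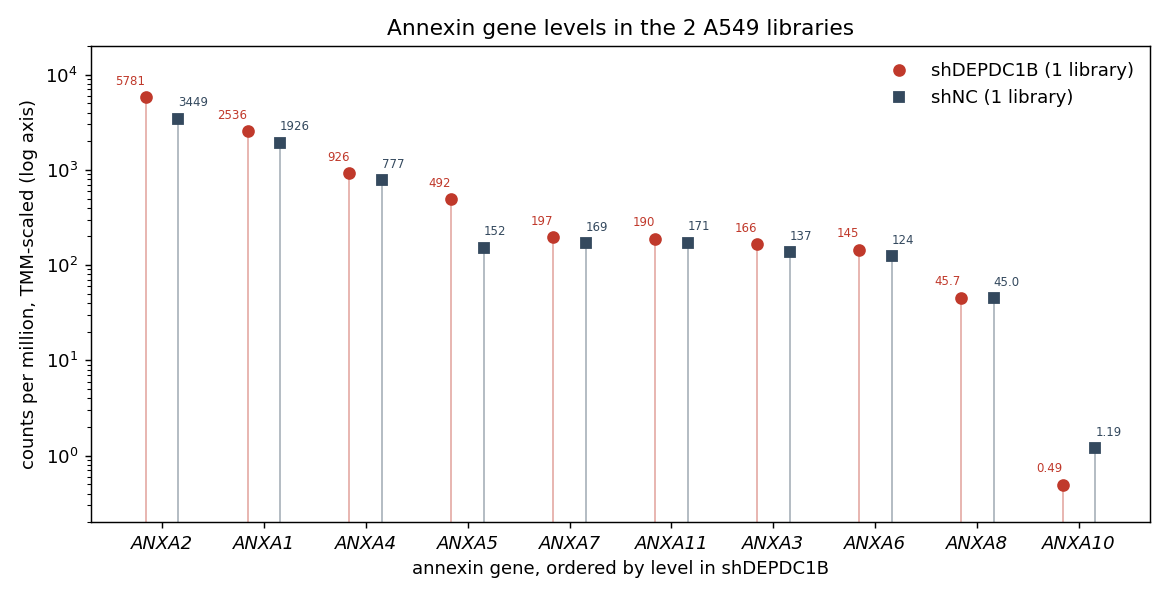
Level of each annexin gene in TMM-scaled CPM (vertical log axis) in the shDEPDC1B library (red circles, left of each pair) and the shNC library (dark squares, right), 1 library each, with no error bars. ANXA2 leads in both libraries at 5781 and 3449 CPM, ANXA5 shows the widest gap among the abundant members at 492 and 152 CPM, and ANXA10 lies near 1 CPM or below it.

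ANXA5 encodes annexin A5, which binds phosphatidylserine with high affinity, forms two-dimensional lattices on damaged membranes and is used as a label of phosphatidylserine exposed on dying cells. The gene lies on the minus strand of chromosome 4, from 121667955 to 121697113 (GRCh38, GENCODE 29). It had 8983 counts in shDEPDC1B and 2928 in shNC, or 492 and 152 CPM. The shDEPDC1B library was the higher one by far, and the ratio was 3.24 [3.11, 3.38], a log2 ratio of 1.70 [1.64, 1.76]. By ratio ANXA5 ranked 13 among the 4605 genes with 1000 or more counts in the higher library and 144 among all 13850 assessed genes. In abundance it ranked 261 among all genes in shDEPDC1B and 1200 in shNC. None of the 1663 windows of 100 bases in its longest coding transcript occurs exactly in a transcript of another annotated gene. Matches with differing bases were not searched, so reads shared with a less exact copy were not tested. The log2 ratio of ANXA5 was 1.60 or more under each of the 3 other library scalings and 1.28 after a loess on transcript length was subtracted.

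ANXA2 encodes annexin A2, which pairs with S100A10 in a heterotetramer at the plasma membrane, where it binds plasminogen and tissue plasminogen activator, and which also links membranes to actin. The gene lies on the minus strand of chromosome 15, from 60347134 to 60402883. It had 105470 counts in shDEPDC1B and 66498 in shNC, or 5781 and 3449 CPM. ANXA2 ranked 7 among all genes by count in shDEPDC1B and 14 in shNC, and it made up 55.2% of the annexin counts in shDEPDC1B and 49.6% in shNC. The ratio was 1.68, a log2 ratio of 0.75 [0.73, 0.76]. The call did not hold after a loess on mean expression (0.29), a linear fit on transcript length and GC content (0.52) or a loess on transcript length (0.31) was subtracted.

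The promoters of ANXA5 and ANXA2, the members called higher, are shown because they are the upstream sequences of the genes that differed most. Each line gives the 250 bases before the RefSeq start, 5′ to 3′ on the gene's own minus strand, from RefSeq (GRCh38.p14). They span chr4:121696981-121697230 for ANXA5 and chr15:60397987-60398236 for ANXA2. GENCODE 29 also holds transcripts that start further upstream, so within its gene bounds the ANXA2 window lies inside the gene and the ANXA5 window overlaps the gene's start. Capitals mark matches on either strand to the TATA box TATAAA, the GC box GGGCGG, the CCAAT box CCAAT, the AP-1 site TGAGTCA, the antioxidant response core TGACNNNGC or the TEAD site GGAATG.
ANXA5: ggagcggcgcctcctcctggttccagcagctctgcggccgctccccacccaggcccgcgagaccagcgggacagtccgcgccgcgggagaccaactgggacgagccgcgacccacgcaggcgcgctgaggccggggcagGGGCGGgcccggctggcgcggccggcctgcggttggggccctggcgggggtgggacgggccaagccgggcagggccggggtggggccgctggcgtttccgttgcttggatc
ANXA2: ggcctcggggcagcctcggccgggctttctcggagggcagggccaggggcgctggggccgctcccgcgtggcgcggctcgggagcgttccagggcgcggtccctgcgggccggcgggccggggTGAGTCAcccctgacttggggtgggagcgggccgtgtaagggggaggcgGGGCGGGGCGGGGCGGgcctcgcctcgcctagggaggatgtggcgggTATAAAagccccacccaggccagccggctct
Both are rich in G and C, at 78.8% for ANXA5 and 78.0% for ANXA2. The ANXA5 window holds 1 GC box and no match to the other 5 motifs. The ANXA2 window holds 3 GC boxes that overlap by a base each, 1 TATA box and 1 AP-1 site. Of 35116 annotated promoter windows of the same length, 42.6% hold a GC box, 10.7% a TATA box, 4.20% an AP-1 site, 32.0% a CCAAT box, 10.9% the antioxidant response core and 11.9% the TEAD site. Promoter windows were found for 9 of the 10 members, 13 windows in all, and ANXA2 was the only one with an AP-1 match. The antioxidant response core and the TEAD site had no match in any of the 13. A match is a run of letters and not evidence that a factor binds.

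Copies of ANXA2 can share its reads. The processed pseudogene ANXA2P2 on chromosome 9 differs from the ANXA2 coding sequence at 16 of 1017 aligned bases, and 287 of 1577 windows of 100 bases in the longest ANXA2 coding transcript also occur in ANXA2P2. A stretch of 60 bases with 1 difference, marked by the capital, shows how alike they are.
ANXA2: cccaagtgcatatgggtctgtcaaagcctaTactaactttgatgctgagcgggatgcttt
ANXA2P2: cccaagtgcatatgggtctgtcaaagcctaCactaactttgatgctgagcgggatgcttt
The counts assigned to the copies were small, at 65 in shDEPDC1B and 86 in shNC for ANXA2P2, 21 and 15 for ANXA2P1, and 15 and 7 for ANXA2P3. With all 3 pseudogenes added to ANXA2 the log2 ratio was 0.74 [0.73, 0.76]. ANXA2R, which encodes a reported annexin A2 receptor, had 26 counts in shDEPDC1B and 15 in shNC, too few to be assessed.

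S100A10, the small partner of annexin A2, had 22418 counts in shDEPDC1B and 15886 in shNC, a log2 ratio of 0.58 [0.55, 0.61] that lies just under the 1.5-fold threshold. After the loess on transcript length S100A10 was at 0.05. Per kilobase of median GENCODE basic transcript length, the ANXA2 level was 2.96 times that of S100A10 in shDEPDC1B and 2.64 times in shNC. AHNAK, a giant scaffold protein that binds the annexin A2 and S100A10 complex, had 12238 counts in shDEPDC1B and 43139 in shNC and was 3.34-fold lower. Its longest coding transcript has 18787 nucleotides, and its log2 ratio of -1.74 [-1.77, -1.71] was -0.93 after the loess on length. HLTF, a chromatin remodeller that binds the same complex, was 2.02-fold lower, with 1333 counts in shDEPDC1B and 2840 in shNC. The partners of the annexin A2 complex lay on both sides of equality. PLAT, the gene for tissue plasminogen activator, had 45 counts in shDEPDC1B and 59 in shNC, a log2 ratio of -0.31 [-0.90, 0.27]. Plasminogen itself, PLG, was at 0 in both.

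ANXA1 encodes annexin A1, an inhibitor of cytosolic phospholipase A2 that is induced by glucocorticoids, is a substrate of the EGF receptor and acts outside the cell on formyl peptide receptors. The gene lies on chromosome 9, from 73151757 to 73170393. It had 46259 counts in shDEPDC1B and 37133 in shNC, or 2536 and 1926 CPM, the next most abundant member after ANXA2 in both libraries. The log2 ratio was 0.40 [0.38, 0.42], a 1.32-fold difference in the same direction as ANXA2 and smaller. ANXA1 was at 0.10 after the loess on transcript length and at 0.05 after the loess on mean expression. Its partner S100A11 had 7330 counts in shDEPDC1B and 5513 in shNC, a log2 ratio of 0.49 [0.44, 0.54], or -0.15 after the loess on length. The enzyme it inhibits, PLA2G4A, had 886 and 980 counts in shDEPDC1B and shNC, and its interval spans equality at -0.07 [-0.20, 0.07]. EGFR was 3.62-fold lower in shDEPDC1B, with 1714 counts against 6563 in shNC. The receptors FPR2 and FPR3 were at 0 in both libraries, and FPR1 had 1 count in shDEPDC1B and 0 in shNC.

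Among the 5 members ANXA3, ANXA4, ANXA6, ANXA7 and ANXA11, differences were small and close to each other. ANXA4, which forms lattices on membranes and is abundant in secretory epithelia, had 16901 counts in shDEPDC1B and 14988 in shNC, a log2 ratio of 0.25 [0.22, 0.28]. ANXA6, the member with a doubled core that acts at endosomes and recruits the RAS inhibitor RASA1, had 2639 and 2391 counts in shDEPDC1B and shNC, a log2 ratio of 0.22 [0.14, 0.30]. ANXA7, first described as synexin for fusing secretory granules, had 3601 and 3266 counts in shDEPDC1B and shNC, a log2 ratio of 0.22 [0.15, 0.29]. ANXA11, which ties RNA granules to lysosomes, had 3471 and 3300 counts in shDEPDC1B and shNC, a log2 ratio of 0.15 [0.08, 0.22]. ANXA3 had 3026 and 2647 counts in shDEPDC1B and shNC, a log2 ratio of 0.27 [0.20, 0.35]. These 5 genes had a ratio slightly above 1 under the TMM scaling and the 3 other scalings. ANXA3 and ANXA7 had a ratio below 1 after the loess on length (-0.16 and -0.02), and ANXA6 lay at equality after the linear fit on length and GC. In order of log2 ratio the members ran ANXA5, ANXA2, ANXA1, ANXA3, ANXA4, ANXA6, ANXA7, ANXA11, ANXA8 and ANXA10. The intervals of neighbours were separate down to ANXA1 and ANXA3 and overlapped for each neighbouring pair from ANXA3 onwards. An exon of a gene on the opposite strand covers 3.67% of the annotated exon bases of ANXA7, and the sources used here do not say whether the libraries kept strand.

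Calcium sensors that bind the tails of ANXA7 and ANXA11 had ratios above 1 before any fit on length, like these annexins. PDCD6, also called ALG-2, had 1830 counts in shDEPDC1B and 1560 in shNC, a log2 ratio of 0.31 [0.21, 0.41]. SRI, which encodes sorcin, had 1480 and 1202 counts in shDEPDC1B and shNC, a log2 ratio of 0.38 [0.27, 0.49]. S100A6, a partner of ANXA11 and ANXA2, had 22186 and 16376 counts in shDEPDC1B and shNC, a log2 ratio of 0.52 [0.49, 0.55]. None of these 3 reached 1.5-fold. After the loess on transcript length PDCD6 was at -0.225, SRI at 0.03 and S100A6 at -0.11. RASA1, the partner of ANXA6, was 1.61-fold lower, with 910 counts in shDEPDC1B and 1551 in shNC.

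**Figure D2:**
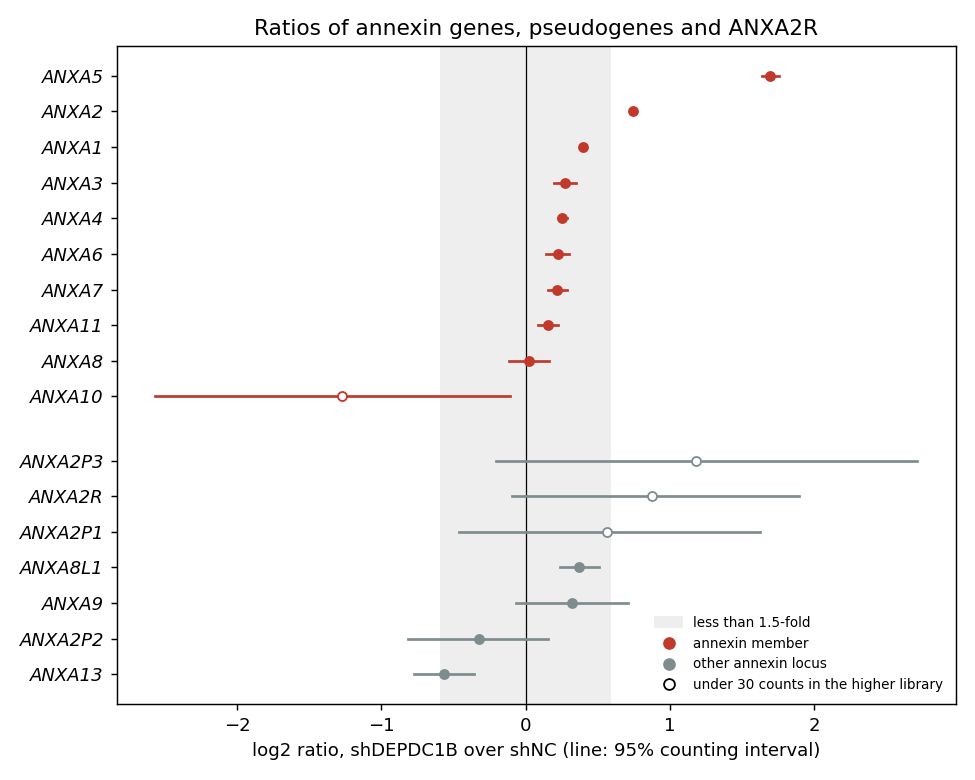
Log2 ratio of shDEPDC1B over shNC (horizontal axis) for the 10 annexin members (red) and 7 other annexin loci (grey), with lines for the exact 95% counting interval, open circles for genes under 30 counts in the higher library and a grey band for less than 1.5-fold. ANXA5 at 1.70 and ANXA2 at 0.75 are the assessed members right of the band, and the other 7 assessed members lie inside it.

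ANXA8, an annexin of stratified epithelia, lies on chromosome 10 from 47460162 to 47484158 and has a near copy on the same chromosome, ANXA8L1. It had 834 counts in shDEPDC1B and 867 in shNC, a log2 ratio of 0.02 [-0.12, 0.16]. ANXA8L1 had 1001 counts in shDEPDC1B and 818 in shNC, a log2 ratio of 0.37 [0.24, 0.51]. The coding sequences differ at 5 of 1095 bases, and 1437 of 2075 windows of 100 bases in the longest ANXA8 transcript also occur in ANXA8L1. The capital in the stretch below marks the only difference within 60 coding bases.
ANXA8: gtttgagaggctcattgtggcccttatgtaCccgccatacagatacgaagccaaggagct
ANXA8L1: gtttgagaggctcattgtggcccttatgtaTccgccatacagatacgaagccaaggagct
How the reads were divided between the genes is a model estimate, so the separate values are uncertain and the counting intervals do not hold that error. Summed over both genes there were 1835 counts in shDEPDC1B and 1685 in shNC, a log2 ratio of 0.20 [0.11, 0.30] that lies with those of ANXA6 and ANXA7.

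ANXA10, an annexin that lacks most calcium-binding sites and is best known in stomach, was barely detected. It had 9 counts in shDEPDC1B and 23 in shNC, or 0.493 and 1.19 CPM. The log2 ratio of -1.27 [-2.57, -0.11] lies below 0, but rests on these few counts and was not assessed. Of the family members outside the 10, ANXA13, an intestinal annexin, had 314 counts in shDEPDC1B and 491 in shNC, a log2 ratio of -0.57 [-0.77, -0.36] just short of 1.5-fold. ANXA9 had 123 and 104 counts in shDEPDC1B and shNC, with an interval that spans equality (0.32 [-0.07, 0.71]). After the loess on transcript length ANXA13 (-1.01) and the pseudogene ANXA2P2 (-0.89) were called lower. They were 2 of the 4 assessed annexin loci outside the 10, beside 15% of genes called lower and 13% higher after that loess.

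Levels of different members can be compared only per transcript length. Per kilobase of its longest coding transcript, ANXA2 stood at 3450 CPM in shDEPDC1B and 2058 CPM in shNC. ANXA1 stood at 1148 and 872 CPM per kilobase in shDEPDC1B and shNC, and ANXA4 at 331 and 278. ANXA5 stood at 279 CPM per kilobase in shDEPDC1B, 0.844 times the ANXA4 level, and at 86.2 in shNC, 0.310 times the ANXA4 level. ANXA3, ANXA7, ANXA6, ANXA11 and ANXA8 followed in that order, from 100 CPM per kilobase for ANXA3 to 21.0 for ANXA8 in shDEPDC1B and from 82.9 to 20.7 in shNC. ANXA10 came last with 0.348 in shDEPDC1B and 0.842 in shNC. The order of the 10 members was the same in both libraries, and also with the median length of GENCODE basic coding transcripts in place of the longest. ANXA5 and ANXA3 in shNC were the only neighbours whose counting intervals overlapped with the longest lengths. With the median basic lengths these intervals did not overlap.

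Most annexin transcripts are short, and across these libraries short transcripts were higher in shDEPDC1B. Among 12297 assessed protein-coding genes the log2 ratio had a Spearman correlation of -0.53 with transcript length, across genes that are not independent replicates. ANXA2, ANXA3 and ANXA5, with 1676, 1657 and 1762 nucleotides, fall among genes of 1505 to 2012 nucleotides, whose median log2 ratio was 0.43 and of which 36.6% were called higher. ANXA5 at 1.70 was above 99.2% of that class by rank, ANXA2 at 0.75 above 77.0%, and ANXA3 at 0.27 above 35.6%. ANXA1 and ANXA8 fall in the class of 2013 to 2438 nucleotides, with a median of 0.31, at ranks of 55.9% and 28.9%. ANXA4, ANXA6 and ANXA7 fall in the class of 2439 to 2922 nucleotides, with a median of 0.20, at ranks of 53.9%, 51.1% and 51.0%. These 3 members lay close to the median of genes of their own length. ANXA11 has a longest coding transcript of 6965 nucleotides, in a class with a median of -0.42, and ranked at 83.9% there. With the loess on longest length subtracted the median of the 9 members was 0.091 and ANXA5 (1.28) and ANXA11 (0.60) were called higher, beside 13% of genes. With median basic lengths, at 4627 nucleotides for ANXA11, ANXA11 was at 0.47 and ANXA5 alone was called. The part of transcript length in these differences was not tested.

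**Figure D3:**
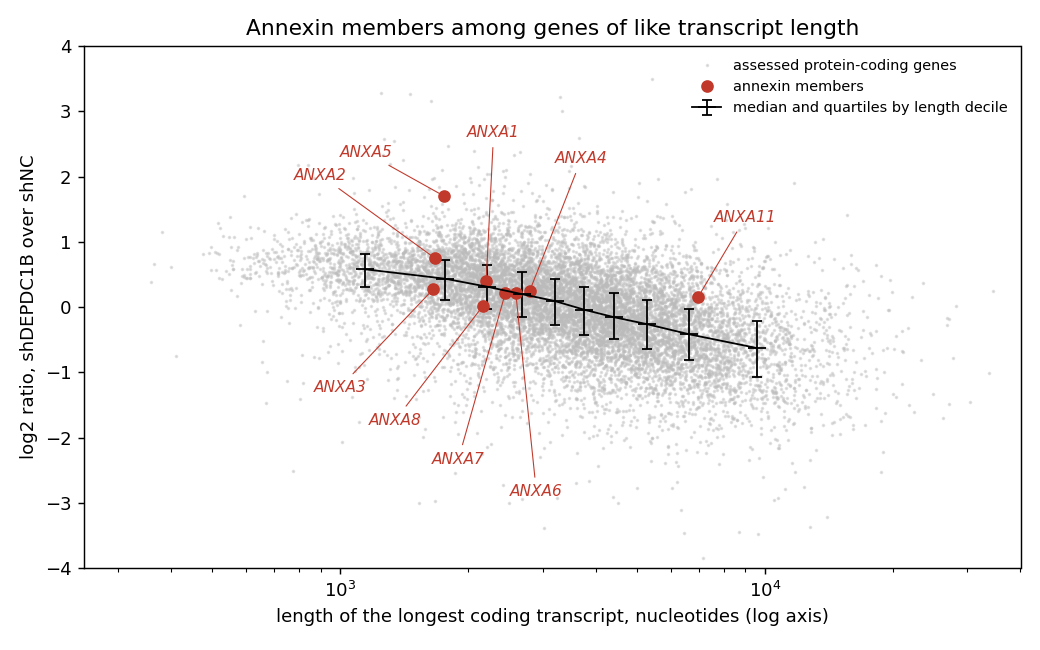
Log2 ratio of shDEPDC1B over shNC (vertical axis) against the length of the longest coding transcript in nucleotides (log axis) for assessed protein-coding genes (grey), with the median and quartiles of each length decile (black) and the 9 assessed annexin members (red). ANXA5 stands at 1.70 where the median of its decile is 0.43, while ANXA4, ANXA6 and ANXA7 lie near their decile median of 0.20.

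The S100 family, which holds the partners of several annexin tails, had 9 assessed genes of 19. Of these S100A3 (2.09-fold) and S100A13 (1.67-fold) were called higher and none lower, beside 19.2% and 19.6% of all assessed genes. Neither call held after the loess on length, where S100A3 was at 0.47 and S100A13 at 0.11. All 9 had a ratio above 1, with S100A2 and S100P within counting error. Their median log2 ratio was 0.49, next to 0.04 for all assessed genes, and -0.15 after the loess on length. Their median longest transcript has 856 nucleotides. Of the 17 binding partners 12 were assessed, with 0 called higher and 5 lower (EGFR, AHNAK, HLTF, RASA1 and PRKCA), beside 19.2% and 19.6% of all assessed genes, and a median of -0.19, or -0.22 after the loess on length. PRKCA, the kinase that binds annexin A6, was 1.54-fold lower, with 2359 counts in shDEPDC1B and 3835 in shNC. Its log2 ratio was -0.053 after the loess on length, which ended the call, while the other 4 were called lower there too. That made 4 of the 12 lower and 0 higher after the loess, beside 15% and 13% of genes.

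Genes of plasma membrane repair, the process in which annexins cap a wound together with ferlins, calpains and ESCRT-III proteins, had 19 assessed members of 25. Higher were 6 and lower 1, beside 19.2% and 19.6% of all assessed genes, with a median log2 ratio of 0.23, and 0.26 after the loess on length. Of these calls only that of SMPD1 (0.80) held after the loess on length, where EHD4 (0.62) was newly called higher. That made 2 of the 19 higher and 0 lower after the loess, beside 13% and 15% of genes. The calpain small subunit CAPNS1 was 1.76-fold higher, with 14105 counts in shDEPDC1B and 8447 in shNC. The acid sphingomyelinase gene SMPD1 was 2.05-fold higher, with 391 counts in shDEPDC1B and 202 in shNC. The ESCRT-III genes CHMP2A (1.64-fold), CHMP4A (1.70-fold) and CHMP4B (1.62-fold) and the large calpain subunit CAPN1 (1.59-fold) were higher as well. After the loess on length CAPNS1 was at 0.44, CAPN1 at 0.57, CHMP2A at 0.18, CHMP4A at 0.28 and CHMP4B at 0.26. The ferlin gene DYSF, at 14 counts in shDEPDC1B and 32 in shNC, was the member called lower. The far more abundant ferlin MYOF had 17340 counts in shDEPDC1B and 17064 in shNC, a log2 ratio of 0.10 [0.07, 0.13].

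Flippases and scramblases move lipids between the faces of the membrane. Phosphatidylserine, the lipid that annexin A5 binds, is 1 of several lipids moved by these families, and not every gene listed here moves it. Of 17 assessed genes 7 were called lower and 1 higher, beside 19.6% and 19.2% of all assessed genes, with a median log2 ratio of -0.56, or -0.35 after the loess on length, in a list whose median longest transcript has 5861 nucleotides. The flippase ATP11A was 2.72-fold lower, with 498 counts in shDEPDC1B and 1430 in shNC. The scramblase ANO6 was 1.86-fold lower, with 2327 counts in shDEPDC1B and 4586 in shNC, and ATP10D was 1.97-fold lower. The calls of ANO6 (-0.56) and ATP10D (-0.57) ended after the loess on length, where 3 of the 7 lower calls held, ATP11A (-0.87) among them. PLSCR1 (-0.69) and PLSCR3 (-0.90) were newly called lower there. That made 5 of the 17 lower and 1 higher after the loess, beside 15% and 13% of genes. ATP8B3 was the gene called higher, at 139 counts in shDEPDC1B and 65 in shNC. Their shared flippase subunit TMEM30A had a log2 ratio of -0.42 [-0.48, -0.36], and the caspase-activated scramblase XKR8 one of 0.55 [0.21, 0.90], both within 1.5-fold.

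**Figure D4:**
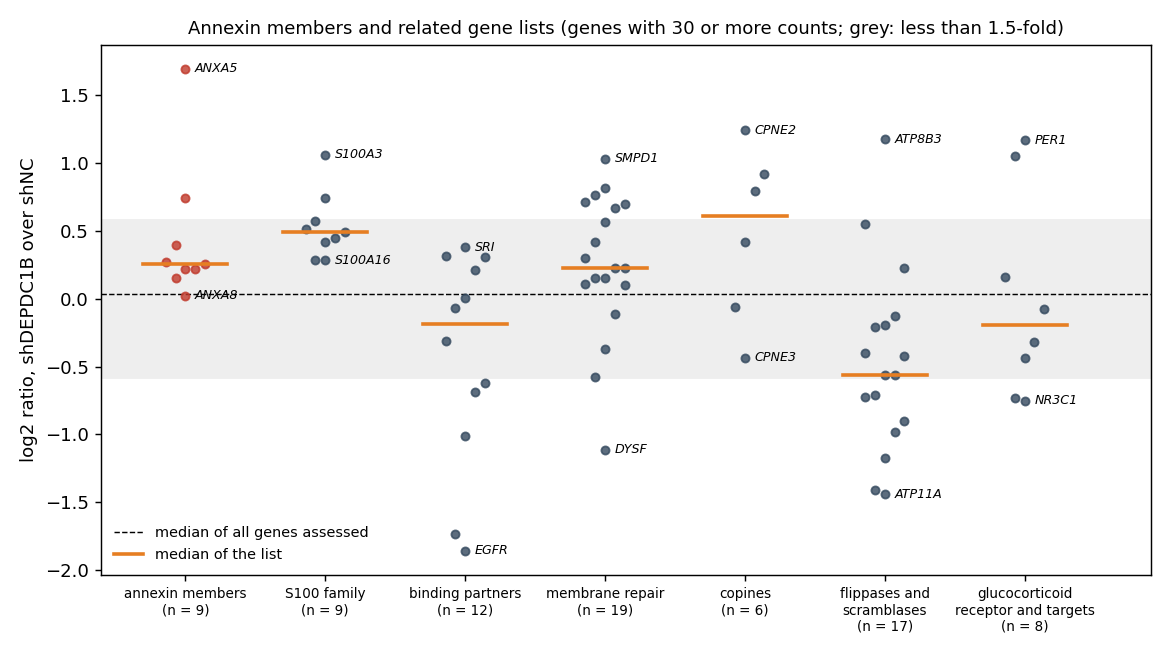
Log2 ratio of shDEPDC1B over shNC for assessed genes of the annexin members (red) and 6 related gene lists (dark), 1 point per gene, with the list median (orange bar), the median of all assessed genes (dashed line) and a grey band for less than 1.5-fold. The annexin median is 0.25 with ANXA5 standing above the rest, the S100 genes all lie above 0, and the flippases and scramblases have a median of -0.56.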

How the data were processed

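The authors deposited a value per gene symbol and library, an estimated count. The submitters' processing notes name Bowtie2, RSEM and hg38. Versions, annotation and strand were not given in the sources used here. RSEM divides reads that match several genes by a model. The estimated counts were rounded to whole numbers and scaled with TMM factors of edgeR 4.0.16 in R 4.3.3 (0.967 for shDEPDC1B and 1.03 for shNC). With 1 library per group no p-value was computed. Ratios carry exact Clopper-Pearson 95% intervals (SciPy 1.17.1), which like any floor cover counting error only, since reads carry no molecular identifiers. Lengths and coordinates are from GENCODE 29 (GRCh38), and 94.0% of assessed genes had a length. The steps were tested on simulated data.

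The members and gene lists were chosen with earlier results of these data known. Named were all annexin loci with a count, 6 fixed partners, and from each list the up to 4 genes farthest from equality in each direction. CHMP4A, CAPN1, PRKCA, MYOF, TMEM30A, XKR8, PLAT, PLG, PLA2G4A, CPNE3, S100A2, S100P, FPR1, FPR2, FPR3 and the markers other than AKR1C1, EPCAM and CD14 were added after their values were seen. So were EHD4, PLSCR1, PLSCR3, FKBP5 and TSC22D3. Genes beside ANXA5 and ANXA2 were taken by position. No gene was named for likeness of pattern, since 2 libraries give 1 ratio. ANXA8L2 was not analysed here, and a few genes that the naming rule or position would add are not reported here. Alternatives were DESeq2 1.42.0 size factors, library totals, upper-quartile factors, other filters and folds, a prior count of 2, fits on length, GC and mean expression, and summed near copies. A loess on basic transcript lengths was added after seeing the data.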

Additional observations from a re-analysis of the deposited data

How the results depend on the processing

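ANXA5 was called higher under every alternative run, with a log2 ratio from 1.28 to 1.70. The number of members called higher was 1 at a 2-fold threshold, after the linear fit on transcript length and GC, after the loess on mean expression and after the loess on basic transcript lengths, and 2 otherwise, with ANXA11 in place of ANXA2 after the loess on longest length. The number called lower was 1, ANXA10, with a filter of 10 counts or with none, and 0 otherwise. The median log2 ratio of the members was 0.20 with DESeq2 size factors, 0.16 with library totals, 0.33 after the length and GC fit, 0.091 after the loess on longest length, 0.14 after the loess on basic length and 0.20 after the loess on mean expression, and the mean was 0.44. Why these values moved was not tested beyond the construction of each alternative. No called member changed sign. Library totals shifted the median of all assessed genes by -0.10 and made 38.8% of called genes higher, against 49.6% with TMM. No paired analysis was possible because each group has 1 library. Depth limits ANXA10, ANXA2R, ANXA2P1 and ANXA2P3, whose intervals are wide.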

Other observations

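The copines are calcium-dependent phospholipid-binding proteins of a separate family, with C2 domains in place of annexin repeats. Of 9 copine genes 6 were assessed, with 3 called higher and 0 lower, beside 19.2% and 19.6% of all assessed genes. The median log2 ratio was 0.61, or 0.42 after the loess on transcript length, where all 3 calls held. That left 3 of the 6 higher and 0 lower after the loess, beside 13% and 15% of genes. CPNE2 was 2.36-fold higher, with 1396 counts in shDEPDC1B and 624 in shNC. CPNE1, the most abundant copine in shDEPDC1B, was 1.90-fold higher, with 3907 counts in shDEPDC1B and 2176 in shNC. CPNE4 was 1.74-fold higher on 138 and 84 counts in shDEPDC1B and shNC, and CPNE3 had a log2 ratio of -0.44 [-0.52, -0.35].

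ANXA1 is known as a glucocorticoid-induced gene, and genes of that response went both ways. NR3C1, the glucocorticoid receptor, was 1.68-fold lower, with 2792 counts in shDEPDC1B and 4964 in shNC, and was not called after the loess on length (-0.28). Its target SGK1 was 1.66-fold lower, with 1064 counts in shDEPDC1B and 1871 in shNC. PER1 was 2.25-fold higher, with 326 counts in shDEPDC1B and 153 in shNC, and KLF9 was 2.08-fold higher, with 344 counts in shDEPDC1B and 175 in shNC. Of 8 assessed genes 2 were called higher and 2 lower, beside 19.2% and 19.6% of all assessed genes, so both numbers are near the background. Their median log2 ratio was -0.19, or -0.35 after the loess on length, and the mean was 0.01. After that loess 3 were called higher and 2 lower, beside 13% and 15% of genes, with FKBP5 (0.63) newly higher and TSC22D3 (-0.72) newly lower.

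The 6 nearest assessed protein-coding genes around ANXA5 on chromosome 4, 3 on each side, differed among themselves. They held 2 called higher and 2 lower, beside 19.2% and 19.6% of all assessed genes, with a median log2 ratio of -0.18. CCNA2 (0.85 [0.65, 1.05]) and MAD2L1 (0.85 [0.65, 1.05]) were called higher, PDE5A (-1.27) was among the lower, and EXOSC9 (0.01) and BBS7 (-0.37) were neither. By gene midpoints, MAD2L1 lies 1621 kb and PDE5A 2121 kb from ANXA5. Around ANXA2 the 6 nearest, 3 on each side, held 1 higher, GCNT3 (0.88), and 2 lower, ICE2 (-0.83) and VPS13C (-1.76), beside 19.2% and 19.6% of all assessed genes. The median log2 ratio of the 6 genes around ANXA2 was -0.03, against 0.75 for ANXA2 itself.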
